A study of Mus musculus with 8 samples.

Results

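*9330117O12Rik* and *Tmem80* are 2 of the 18833 genes measured in mature oligodendrocytes of KO and WT mice. They were chosen by measured values, because their mean log2 level and the share of cells with a transcript differed between the genotypes in the same direction in each oligodendrocyte cluster, and did not rest on Oligo1, a cluster found almost only in KO mice. Their KO against WT difference is therefore a description with no test, and tests are kept for measures that the choice did not use. The study asked what happens to myelin and oligodendrocytes when microglia are missing. KO mice (FIREdelta/delta) lack, on both copies, the Fms intronic regulatory element, an enhancer inside *Csf1r*, and WT controls came from crosses of carriers of 1 deleted copy. All mice were female, on a mixed CBA and C57Bl6J background, and the labels give no other allele or treatment. Mouse 1 (WT) and mouse 3 (KO) were aged 1 month and 18 days, and mouse 4 (WT) and mouse 6 (KO) 1 month and 16 days. Each mouse gave a hippocampus library, from both hemispheres, and a library labelled cortex, which held the rest of the left hemisphere, so that 8 single-cell libraries, 4 per genotype, came from 2 mice per genotype.

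Oligodendrocytes wrap axons in myelin, and microglia, the resident macrophages of the brain, depend on signals through the receptor encoded by *Csf1r*. *Tmem80* encodes a membrane protein of the ciliary transition zone, the gate at the base of the primary cilium that sorts which proteins enter it. *9330117O12Rik* is annotated as a long non-coding RNA, a transcript with no known protein product.

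Transcripts were counted in droplets from their 3′ ends, and a barcode on each captured molecule, the unique molecular identifier (UMI), kept copies made by PCR from being counted again. Libraries held 904 to 2784 cells with a median of 9377 to 13725.5 UMIs per cell, and 21 of 12560 barcodes occurred in 2 libraries. *Csf1r* itself gave a UMI in 5.31 to 10.2% of cells in WT libraries and in at most 0.155% in KO libraries, which matched the labels. *Mog*, *Mag* and *Mbp*, genes of major myelin proteins, had a UMI in 100% of cells averaged over the libraries of each genotype. The cells were processed in 4 batches, each with 1 tissue and with 1 WT and 1 KO library, so genotypes can be compared within a batch. In the study's methods batch 6, which holds the cortex of mice 4 and 6, was of poorer quality.

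*Tmem80* (ENSMUSG00000025505) is a protein-coding gene on the forward strand of chromosome 7, from position 141327739 to 141337156 in GRCm38 (GENCODE M21), with 9 annotated transcripts, 6 of them coding. Its start lies head to head with that of *Deaf1*, a gene for a DNA-binding transcription factor on the reverse strand, and the RefSeq starts of both genes are 405 bases apart. GENCODE M21 puts these starts closer together, at 141327739 for *Tmem80* and 141327690 for *Deaf1*. The RefSeq promoter window is shown because *Deaf1* was measured in the same cells and offers a comparison across this shared region. It lies wholly inside the GENCODE span of *Tmem80*, downstream of the GENCODE start, so it is a promoter window by the RefSeq start only. The RefSeq window from 250 bases before to 50 bases after the *Tmem80* start, chr7:141327880-141328179 on the forward strand of GRCm38.p6, reads 5′ to 3′ as follows, with capitals for the 96 bases that are also in the window of *Deaf1*.
Tmem80: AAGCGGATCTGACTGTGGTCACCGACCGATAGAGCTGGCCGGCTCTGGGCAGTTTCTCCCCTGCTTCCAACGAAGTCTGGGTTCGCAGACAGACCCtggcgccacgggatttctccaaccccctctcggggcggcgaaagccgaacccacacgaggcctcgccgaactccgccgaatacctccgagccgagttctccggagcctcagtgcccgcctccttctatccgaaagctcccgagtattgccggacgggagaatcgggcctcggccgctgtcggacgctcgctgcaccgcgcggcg

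The window was 66.0% G or C, against a median of 52.7% over 32851 RefSeq windows of the same length, and it held 35 CG dinucleotides, a number reached by 6.95% of all windows. Searched on both strands, the letters GGGCGG occurred 1 time, and 35.7% of all windows held them. Neither CCAAT (in 37.4% of all windows) nor TATAAA (in 13.6%) was found in these letters.

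Over all oligodendrocytes, Oligo1 included, *Tmem80* was higher in every KO library than in any WT library. The mean log2 level, that is the mean over cells of log2 of size-factor-normalized UMIs plus 1, was 0.206 in the hippocampus and 0.231 in the cortex of WT mouse 1, and 0.214 and 0.238 in WT mouse 4. The corresponding hippocampus and cortex levels were 0.376 and 0.411 in KO mouse 3, and 0.380 and 0.392 in KO mouse 6. The highest WT library thus stood below the lowest KO library, and within a genotype the libraries were close. Over Oligo2 to Oligo4, 223 of 9232 genes (2.42%) had no overlap of the 4 WT and 4 KO libraries, in either direction. Averaged over mice, the normalized UMIs per cell were 0.218 ± 0.00277 in WT and 0.395 ± 0.00952 in KO (SD, n = 2 mice each), a KO to WT ratio of 1.81. Over Oligo2 to Oligo4 alone, the KO mean was 0.387 and the ratio 1.78.

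*9330117O12Rik* moved the other way, again over all oligodendrocytes. Its mean log2 level was 0.334 in the hippocampus and 0.317 in the cortex of WT mouse 1, and 0.381 and 0.269 in WT mouse 4. In KO mouse 3 the levels were 0.140 and 0.143, and in KO mouse 6 they were 0.143 and 0.137. All KO libraries sat near 1 level, well below the lowest WT library, while the WT libraries were spread more widely, with an SD of 0.0464 against 0.00276 in KO (n = 4 libraries each). The spread in WT lay mostly between the tissues of mouse 4, so that the averages of the 2 WT mice were almost equal, with an SD of 0.000223 (n = 2). Averaged over mice, the normalized UMIs per cell were 0.329 ± 0.00398 in WT and 0.134 ± 0.00138 in KO (SD, n = 2 mice each), a WT to KO ratio of 2.46. Over Oligo2 to Oligo4 alone, this ratio was 2.41.

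**Figure D1:**
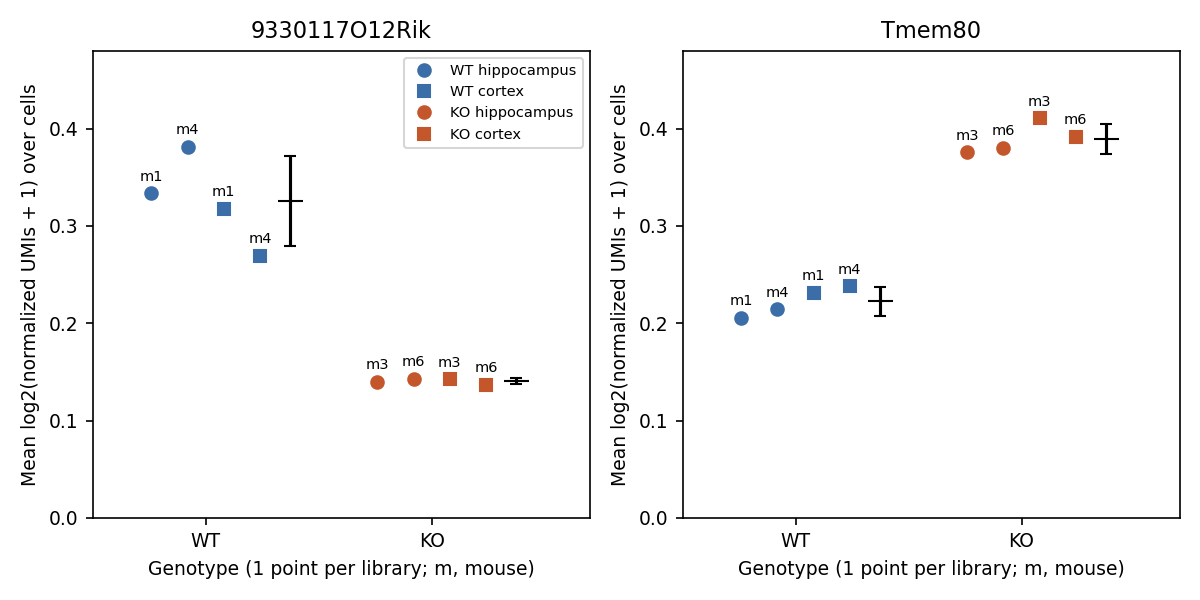
Mean log2(normalized UMIs + 1) of *9330117O12Rik* (left) and *Tmem80* (right), 1 point per library (circles, hippocampus; squares, cortex; m, mouse), with the mean ± SD of the 4 libraries of each genotype as a bar. All oligodendrocytes are covered, Oligo1 included. KO libraries of *9330117O12Rik* lie between 0.137 and 0.143, below all WT libraries, and KO libraries of *Tmem80* lie between 0.376 and 0.411, above all WT libraries.

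Both genes were sparse, and most cells with a transcript had a single UMI. *9330117O12Rik* gave 4162 UMIs and was seen in 25.8% of the 12581 cells, and *Tmem80* gave 5651 UMIs and was seen in 33.9%. By total UMIs they ranked 4644 and 3769 among the 18833 genes. They are genes of middling abundance, and their shares of cells depend on how deeply each cell was read.

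The share of cells with a *9330117O12Rik* UMI was 33.4% (31.5 to 35.3%, 95% Clopper-Pearson interval) and 44.8% (41.8 to 47.9%) in the hippocampus of WT mice 1 and 4, and 37.4% (34.8 to 40.1%) and 29.4% (26.7 to 32.1%) in their cortex. In KO mice 3 and 6 it was 15.8% (14.4 to 17.2%) and 17.3% (15.6 to 19.0%) in the hippocampus, and 19.6% (17.3 to 22.2%) and 18.4% (15.89 to 21.04%) in the cortex. No KO interval reached a WT interval, although these intervals cover counting error only and the gene was chosen on this share. With every cell thinned at random to 5000 UMIs, the shares fell to 16.3 to 20.2% in WT libraries and 7.64 to 8.52% in KO libraries.

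The share of cells with a *Tmem80* UMI was 21.7% (20.02 to 23.4%) and 27.7% (25.0 to 30.5%) in the hippocampus of WT mice 1 and 4, and 28.8% (26.4 to 31.3%) and 27.0% (24.4 to 29.7%) in their cortex. It was 37.9% (36.1 to 39.7%) and 40.8% (38.6 to 43.0%) in the hippocampus of KO mice 3 and 6, and 48.0% (45.0 to 51.1%) and 46.2% (43.0 to 49.6%) in their cortex. Again no interval of one genotype reached the other. The intervals cover counting error over cells and not the spread between mice, and the gene was chosen on this share. After thinning, the shares were 11.5 to 13.6% in WT and 21.8 to 22.8% in KO libraries, and the apparent gap between KO hippocampus and KO cortex was largely gone. The table used here holds oligodendrocytes, so the share that free RNA would give in a cell type without these genes was not measured.

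**Figure D2:**
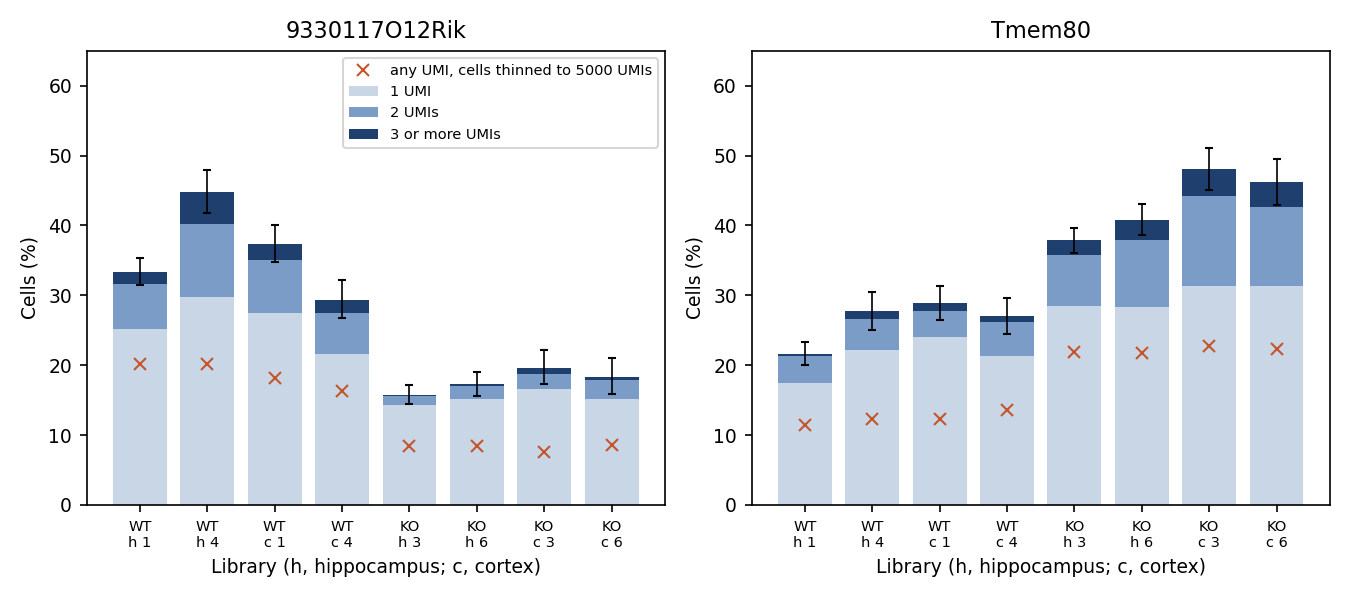
Percent of cells with 1, 2 or 3 and more UMIs of each gene in each library (stacked bars, from 0; h, hippocampus; c, cortex; the number is the mouse), with the 95% Clopper-Pearson interval of their sum, and the percent with any UMI after cells were thinned to 5000 UMIs (crosses). All oligodendrocytes are covered, Oligo1 included. Thinned shares of *Tmem80* are 11.5 to 13.6% in WT and 21.8 to 22.8% in KO libraries, and those of *9330117O12Rik* 16.3 to 20.2% and 7.64 to 8.52%.

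The differences were not carried by cells with many UMIs alone. Cells with exactly 1 *9330117O12Rik* UMI made up 21.5 to 29.8% in WT libraries and 14.4 to 16.6% in KO libraries. With exactly 1 *Tmem80* UMI they made up 17.4 to 24.1% in WT and 28.3 to 31.3% in KO. In WT libraries 1.81 to 4.58% of cells held 3 or more *9330117O12Rik* UMIs, against 0.144 to 0.838% in KO libraries. For *Tmem80* the same share was 0.337 to 1.05% in WT and 2.05 to 3.82% in KO. A single rate per UMI shared by all cells of a library would give 22.9 to 29.2% of WT cells and 38.8 to 49.7% of KO cells with a *Tmem80* UMI, slightly above what was counted in each library. For *9330117O12Rik* such a rate would give 32.3 to 47.8% of WT and 15.8 to 20.9% of KO cells, also above the count in each library. No cell held more than 7 UMIs of either gene. Both genes were thus spread thinly over the population in both genotypes.

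The difference was present in every cluster that both genotypes fill. The genes were chosen for this, so the values by cluster describe the choice and are no finding. WT libraries hold no Oligo1 cell except for 6 in the hippocampus of mouse 4, so the comparison covers Oligo2 to Oligo4. In Oligo2, *9330117O12Rik* had a mean log2 level of 0.318 to 0.382 in WT libraries and of 0.160 to 0.218 in KO libraries. In Oligo3 it was 0.262 to 0.387 against 0.129 to 0.136, and in Oligo4 0.200 to 0.364 against 0.0734 to 0.111. The genotypes did not overlap in any of these clusters. Within the libraries, however, the clusters differed among themselves: Oligo4 had the lowest level in 8 of 8 libraries and Oligo2 the highest in 4 of 4 KO and 2 of 4 WT libraries, so that KO Oligo2 cells of the hippocampus of mouse 6, at 0.218, stood above WT Oligo4 cells of the cortex of mouse 4, at 0.200.

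The order of the clusters varied more for *Tmem80*. Its mean log2 level in Oligo2 was 0.204 to 0.242 in WT and 0.383 to 0.451 in KO libraries, in Oligo3 0.201 to 0.236 and 0.336 to 0.400, and in Oligo4 0.170 to 0.269 and 0.343 to 0.450. Oligo3 was the lowest of these clusters in 3 of 4 KO and 2 of 4 WT libraries, and Oligo4 the highest in 3 of 4 WT and 2 of 4 KO libraries. Oligo4 had as few as 38 cells in a WT library and 47 in a KO library, so single levels there are the least precise. Every KO value in any of the 3 clusters was higher than every WT value in any of them. Such non-overlap, in either direction, was found for 6 of 9232 genes (0.065%), and *Tmem80* was chosen on this contrast.

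**Figure D3:**
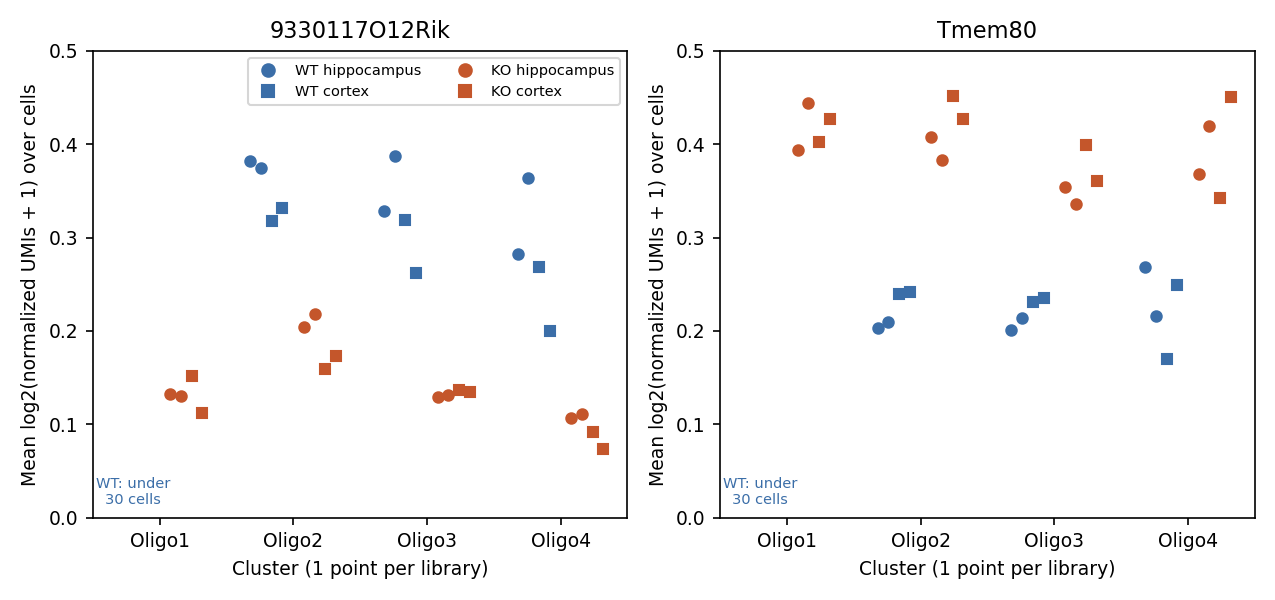
Mean log2(normalized UMIs + 1) in each cluster, 1 point per library with at least 30 cells in it (circles, hippocampus; squares, cortex; blue, WT; orange, KO). *9330117O12Rik* is lowest in Oligo4 in all 8 libraries, and for *Tmem80* all KO points of Oligo2 to Oligo4 (0.336 to 0.451) lie above all WT points (0.170 to 0.269).

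KO Oligo1 cells stood within 0.0824 of the other KO cells of their library in mean log2 level, for both genes. *9330117O12Rik* was at 0.132 in Oligo1 and 0.144 in the other cells of the hippocampus of mouse 3, and at 0.130 and 0.147 in that of mouse 6. In the cortex it was at 0.152 and 0.141 in mouse 3 and at 0.112 and 0.140 in mouse 6, so Oligo1 was lower in 3 of 4 libraries and higher in 1. *Tmem80* was at 0.394 in Oligo1 against 0.368 in the other hippocampal cells of mouse 3, and at 0.444 against 0.361 in mouse 6. In the cortex the levels were 0.402 against 0.412 in mouse 3 and 0.427 against 0.387 in mouse 6, again with 1 library against the other 3. Oligo1 levels of both genes therefore stood on the KO side of the WT range.

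The same held for KO Oligo3 cells split by *C4b*, which encodes a complement component and leads Oligo1. Oligo3 cells with a *C4b* UMI differed from those without by -0.0251 to 0.0406 in mean log2 *9330117O12Rik* and by -0.0388 to 0.0554 in *Tmem80* over the 4 KO libraries, without a common sign for either gene.

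Each batch on its own gave the same direction. KO minus WT over Oligo2 to Oligo4 was -0.190, -0.176, -0.235 and -0.129 for the mean log2 of *9330117O12Rik* in batches 3, 4, 5 and 6. For *Tmem80* it was 0.162, 0.181, 0.148 and 0.149. The smallest *9330117O12Rik* difference was that of batch 6, and over the 4 mice the difference was -0.18 with that batch and -0.21 without it. With 2 mice per genotype an exact two-sided permutation test could not give a p below 0.333.

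RNA of other cells also moved with genotype, and its values are given here beside the members. All 8 microglial markers had lower mean levels in KO (3 of 8 were tested and 0 passed), and at least 1 UMI of 7 of them (*Csf1r*, *Cx3cr1*, *P2ry12*, *Tmem119*, *C1qa*, *C1qb* and *Ctss*) was in 31.8 to 57.4% of WT cells per library and in 0.744 to 1.19% of KO cells, with *Tmem119* at 0 in KO. Among WT cells without any of these UMIs, *9330117O12Rik* stood at 0.294 to 0.396, and KO minus WT was -0.193. In the same cells *Tmem80* stood at 0.204 to 0.225 in WT and 0.362 to 0.410 in KO. KO minus WT of *Tmem80* in such cells was 0.168. With all Oligo2 to Oligo4 cells the differences were -0.183 for *9330117O12Rik* and 0.160 for *Tmem80*. Whether microglial RNA plays a part in either difference was not tested. Haemoglobin UMIs were in 18.5 to 35.8% of WT and 37.1 to 64.4% of KO cells per library, and in cells without them KO minus WT was -0.178 for *9330117O12Rik* and 0.150 for *Tmem80*. None of these other marker lists had a gene past the test, with 6 of 6 astrocyte, 3 of 4 erythrocyte, 1 of 4 neuronal, 1 of 4 endothelial, 1 of 4 ependymal and 0 of 4 progenitor markers tested.

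Non-overlap of 4 WT and 4 KO libraries was not rare: 223 of the 9232 genes detected in 5% of cells or more had it over Oligo2 to Oligo4, or 2.42%, among them both members. By the size of the mean log2 difference, *9330117O12Rik* ranked 31 and *Tmem80* 49 of these genes. Non-overlap of all 12 WT and 12 KO library and cluster means of Oligo2 to Oligo4 was found for 6 genes, or 0.065%. Listed after their values were seen, they were *C4b*, *Cebpd* (a transcription factor) and *Tmem80*, higher in KO, and *C1qa*, *C1qb* (microglial complement genes) and *Isoc1*, lower in KO. *Tmem80* had the second widest gap between the genotypes, 0.0669 on the log2 scale, after *C4b* with 0.184. *9330117O12Rik* missed this list through the KO Oligo2 and WT Oligo4 values above, which gave it a gap of -0.0177. Since the members were chosen on this contrast, nothing is read from their presence in these counts.

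In the limma fit of the genotype difference over each mouse's mean, 2 of 9232 genes, or 0.0217%, passed an adjusted p of 0.05 with Benjamini-Hochberg adjustment, and 97 had an unadjusted p under it. With 1 mouse left out the count was 21 without WT mouse 1, 51 without KO mouse 3, 22 without WT mouse 4 and 34 without KO mouse 6. In those fits the lone mouse of a genotype is assumed to vary like the 2 of the other genotype, so the spread rests on 1 pair of mice. The 2 genes were *C4b*, higher in KO by 0.70 ± 0.036, and *Serpina3n*, a serine protease inhibitor gene, higher by 0.21 ± 0.0147 (log2 difference ± SE). KO minus WT was -0.18 for *9330117O12Rik* and 0.16 for *Tmem80* in the same fit, given with no test. This fit did not pair the mice, although mice 1 and 3 shared an age and batches 3 and 4, and mice 4 and 6 an age and batches 5 and 6. With age as a block, 2 genes passed in limma and 520 had an unadjusted p under 0.05, against 97 without the block.

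The tissue of origin was not used to choose the members. Hippocampus and cortex were never in the same batch, so hippocampus minus cortex is also a difference between batches, and the 2 cannot be told apart. *9330117O12Rik* was higher in the hippocampus than in the cortex by 0.0164 in WT mouse 1 and by 0.112 in WT mouse 4, while the difference was -0.00258 in KO mouse 3 and 0.00600 in KO mouse 6. Fitted with genotype over the 8 libraries, hippocampus minus cortex was 0.0331 (SE 0.0193, 95% interval -0.0105 to 0.0766, limma adjusted p = 0.996). Without WT mouse 4 it was 0.00661, and with each of the other mice left out it was up to 0.0449. Leaving out the batch 6 libraries gave 0.0196. *Tmem80* was lower in the hippocampus in 4 of 4 mice, with hippocampus minus cortex at -0.0257 and -0.0237 in WT mice 1 and 4 and at -0.0348 and -0.0111 in KO mice 3 and 6 in mean log2 level. Its fitted difference was -0.0238 (SE 0.0146, 95% interval -0.0567 to 0.00901, limma adjusted p = 0.996). In CPM, the gene's UMIs scaled to the library total, 1 of the 4 mice went the other way for *Tmem80*, KO mouse 6, by 2.17. Neither gene passed the test for tissue.

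Of the 9257 genes tested for tissue, 0 passed the limma threshold, or 0% (451 at an unadjusted p under 0.05; 0 passed in edgeR and 9 in DESeq2). With the mouse as a block, which is the pairing of the design because both tissues came from each mouse, 58 genes passed, but neither member did (adjusted p = 0.317 for *9330117O12Rik* and 0.311 for *Tmem80* by limma).

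Whether the tissue difference depended on genotype was also tested. For *9330117O12Rik* the tissue difference of KO mice minus that of WT mice was -0.0627 on the log2 scale (SE 0.0287, 95% interval -0.124 to -0.000942, unadjusted p = 0.047 and adjusted p = 0.779 by limma), which did not pass the adjusted threshold. The value varied with the WT mouse left out, at -0.0147 without WT mouse 4 and -0.111 without WT mouse 1 (adjusted p = 0.944 and 0.210 by limma). For *Tmem80* the corresponding value was 0.00174 (SE 0.0261, 95% interval -0.0543 to 0.0578, limma adjusted p = 0.994). The tissue and interaction tests covered all oligodendrocytes, Oligo1 included. Over Oligo2 to Oligo4 cells only, the *Tmem80* interaction value was -0.00963 and 0 of 9232 genes passed. Over all oligodendrocytes 2 of the 9257 genes tested passed, or 0.0216%. They were *Serpina3n* and, named after its values were seen, *Slc9a3r2*. The count was 0 without WT mouse 1 or WT mouse 4, 1 without KO mouse 3 and 68 without KO mouse 6.

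*9330117O12Rik* (ENSMUSG00000118154) is on the forward strand of chromosome 18, from position 54611744 to 54639870 in GRCm38, by RefSeq. GENCODE M21 has an intergenic non-coding RNA with the same ends, 1 transcript and 3 exons of 1840 bases in all, under another name. The gene lies 6.46 Mb from *Csf1r*, which carries the deletion. Within 10 Mb of *Csf1r*, 63 genes were tested, with KO minus WT between -0.18 and 0.14 and a median of 0.00237. *9330117O12Rik* had the largest absolute difference of them, but it was chosen on this contrast, so nothing is read from its rank. Of the 63, 1 gene, *Isoc1*, was among the 6 without overlap of the 12 WT and 12 KO means.

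Genes next to *9330117O12Rik* were compared as measures that the choice did not use. Of its 10 nearest genes on each side, 13 of 20 had enough UMIs to be tested, and 0 passed, against 0.0217% of all genes. At that share, no call among 13 genes is no result about them. Their median KO minus WT was -0.00112, against 0.000753 for all genes tested, with 6 positive and 7 negative. The nearest gene before it, *Redrum*, another non-coding RNA, had a UMI in at most 0.0445% of cells on average in either genotype and was not tested. The nearest after it was *Zfp608*, a zinc finger protein gene 0.276 Mb away, at 0.408 and 0.514 in WT mice 1 and 4 and 0.356 and 0.358 in KO mice 3 and 6. Both WT mice were thus above both KO mice, and KO minus WT was -0.10 ± 0.0421 (SE, limma adjusted p = 1.00), which did not pass.

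The other neighbours with the largest differences were small beside it. *Csnk1g3*, a casein kinase gene, had a KO minus WT of -0.0504 ± 0.0603, *Aldh7a1*, a gene for an aldehyde dehydrogenase of lysine breakdown, of 0.0486 ± 0.0168, *Phax*, an RNA export adaptor gene, of 0.0344 ± 0.0386, and *Gm4221*, an antisense RNA that overlaps one end of *Zfp608*, of -0.0308 ± 0.0181 (SE). 2 of the 13, *Zfp608* and *Aldh7a1*, had an unadjusted p under 0.05 (0.0466 and 0.0256 by limma), with opposite signs.

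**Figure D4:**
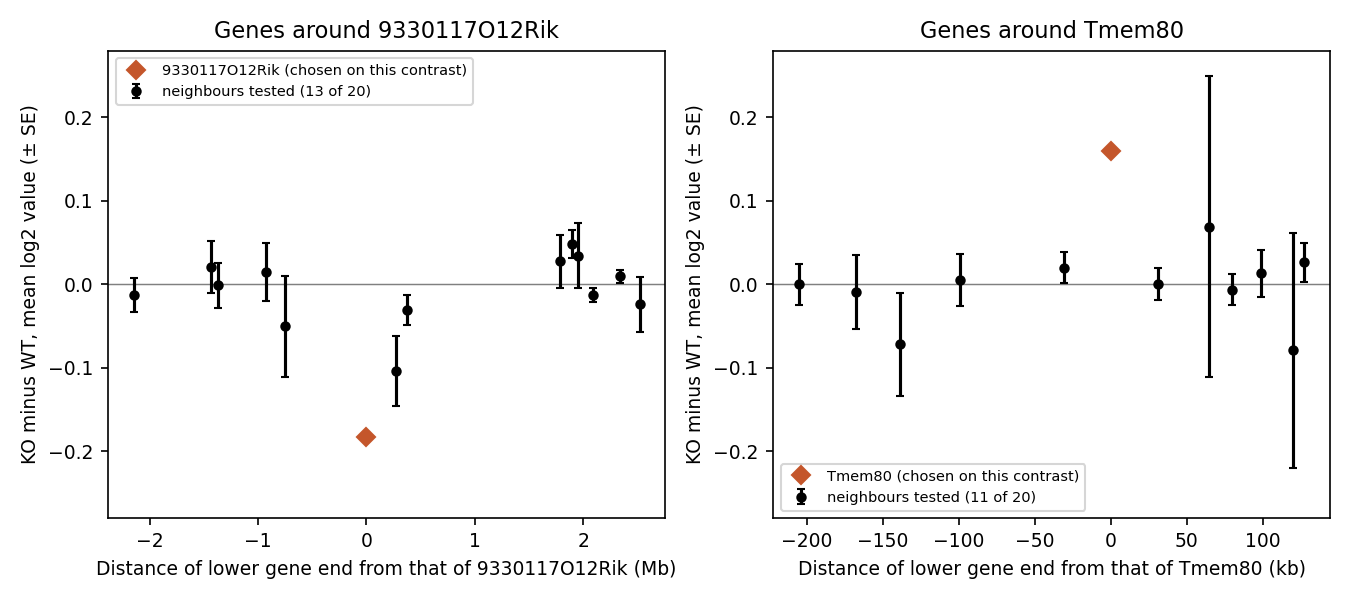
KO minus WT in mean log2 value over Oligo2 to Oligo4 (± SE from limma, 2 mice per genotype) for the tested genes on each side of *9330117O12Rik* (left, distance in Mb) and *Tmem80* (right, distance in kb), with the members as diamonds without error. Tested neighbours range from -0.10 to 0.0486 on the left and from -0.0793 to 0.0692 on the right, and none passed the adjusted threshold.

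Around *Tmem80*, 11 of 20 neighbours were tested and 0 passed, again against 0.0217% of all genes tested, a share at which no call is no result about them. Their median KO minus WT was 0.000644, with 7 positive and 4 negative. *Deaf1*, whose RefSeq window shares 96 bases with that of *Tmem80*, was at 0.180 and 0.179 in WT mice 1 and 4 and at 0.211 and 0.188 in KO mice 3 and 6. Its difference of 0.0199 ± 0.0188 (SE, limma adjusted p = 1.00) did not pass. *Eps8l2*, the next gene downstream, had a UMI in 0.366% of WT and 0.498% of KO cells and was not tested. The largest differences nearby were those of *Rplp2*, a ribosomal stalk protein gene (-0.0793 ± 0.141), *Hras*, a small GTPase gene (-0.0721 ± 0.0614), *Taldo1*, a pentose phosphate pathway enzyme gene (0.0692 ± 0.18), *Pnpla2*, the adipose triglyceride lipase gene (0.0261 ± 0.0238), and *Deaf1* (values are KO minus WT ± SE on the log2 scale). None of them passed, and KO minus WT of the 77 genes tested within 10 Mb ran from -0.155 to 0.16. The upper end was *Tmem80* itself, which was chosen on this contrast.

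Other genes of the ciliary transition zone were compared between genotypes in the same fit. Of 20 such genes 12 were tested and 0 passed, against 0.0217% of all genes tested, a share at which no call among 12 genes is no result about them. The signs were mixed, 8 with a positive and 4 with a negative sign. Their KO minus WT ran from -0.0108 to 0.0299 with a median of 0.00493, against 0.000753 for all genes tested. The largest were those of *Ahi1* (0.0299 ± 0.0426), *Tmem237* (0.0197 ± 0.035) and *Cep290* (0.0165 ± 0.0324), genes for transition zone proteins that are mutated in human ciliopathies (± SE). Each of these 3 differences was below its standard error.

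How often the 2 genes were counted in the same cell varied between libraries. In thinned cells, a *Tmem80* UMI was present in 10.8% of WT mouse 1 hippocampal cells with a *9330117O12Rik* UMI and in 11.7% of those without. The gap was wider in WT mouse 4, at 9.48 against 13.04% in the hippocampus and 9.84 against 14.4% in the cortex, and had the other sign in the cortex of WT mouse 1, at 14.4 against 11.9%. In KO mice the shares were 20.4 and 22.1% in the hippocampus and 25.6 and 22.6% in the cortex of mouse 3, and 19.02 and 22.02% and 22.1 and 22.4% in mouse 6. Cells with a *9330117O12Rik* UMI thus had the lower share in 6 of 8 libraries. Over the 8 libraries, cells with both made up 1.603 to 2.61%, where independent detection would give 1.74 to 2.48%. The correlation of their log2 values over the cells of 1 library was between -0.0727 and 0.0369, which in counts this sparse is no finding.

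Across libraries, the 2 genes mirrored each other, with a Pearson correlation of their mean log2 levels of -0.967 over the 8 libraries. Since both were chosen for differing between the genotypes, a strong correlation follows from the choice and is no finding. The levels cover all oligodendrocytes, with Oligo1, which is found almost only in KO mice. This correlation, and those that follow, describe mainly the separation of 4 WT from 4 KO libraries, which come from 4 mice. The levels most like that of *9330117O12Rik* among 9256 genes were those of *Tpd52* (0.995), *Fcho2* (0.975), *Me2* (0.974), *Serinc5* (0.972) and *Khdrbs1* (0.971), and those most opposed were *Tmsb4x* (-0.972), *Tmem80*, *Gsn* (-0.959), *Klk6* (-0.940) and *Plpp1* (-0.939). For *Tmem80* the most alike were *Tmsb4x* (0.976), *Crip2* (0.975), *Plpp1* (0.975), *Slc22a15* (0.969) and *Gsn* (0.964), and the most opposed *Tpd52* (-0.979), *Tnik* (-0.979), *Dip2b* (-0.975), *9330117O12Rik* and *Serinc5* (-0.965). *Tpd52*, at 1.10 to 1.13 in WT and 1.06 to 1.07 in KO libraries, shows that a close match of pattern can go with a far smaller difference.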

How the data were processed

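The authors sorted live single cells without a surface marker, made 10x Genomics 3′ libraries (v3.1 chemistry) and counted UMIs with Cell Ranger 5.0.0 on mm10. They filtered cells, normalized them with scran, kept mature oligodendrocytes and deposited log2 values (each UMI count was divided by a size factor, 1 was added and log2 taken), covering 18833 genes in 12581 cells. The paper states higher numbers of genes and of cells for its final oligodendrocyte set. A second deposited table holds counts of UMIs per cell (all at least 5000), size factors, which are a ratio to the average cell, batches and clusters. Clusters came from batch-corrected data, but the deposited log2 values are not batch-corrected. UMI counts recovered with the size factors were all whole within 0.001. Doublets were gated out by scatter, and no doublet caller was run here.

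Groups, mice and ages came from the labels. The members and the gene lists were chosen with earlier results of these data known. Genes detected in 5% of cells or more on average over libraries were compared with limma 3.58.1 (R 4.3.3) on mean log2 values, with Benjamini-Hochberg adjustment over all genes tested and a threshold of 0.05: between tissues with genotype in the model, between genotypes for the within-mouse tissue difference, and between genotypes on each mouse's mean over Oligo2 to Oligo4. The fits of tissue and of the within-mouse tissue difference used all oligodendrocytes. edgeR 4.0.16 and DESeq2 1.42.0 on UMI sums were alternatives. Other alternatives were other log scales, filters, centring, cell sets, the replicate block, age as a block and 1 mouse left out. Chosen after seeing the data were leaving out batch 6 or cells with microglial or haemoglobin UMIs. The model fits were tested on simulated data. The labels name the mouse of each library, so the mouse numbers pair tissues. Deviations of the 2 tissues of a mouse from their group means correlated across 9257 genes (0.843 in WT, 0.853 in KO). The mice of a genotype also differed in age and batches, so these correlations cannot separate the mouse from those. With 2 mice per genotype, p-values rest on few animals. Genes named are the members, *Csf1r*, *C4b*, *Serpina3n*, the nearest gene on each side of a member and the 5 of its 20 neighbours with the largest genotype difference, the 3 transition zone genes with the largest difference, and the 5 genes with the highest and 5 with the lowest correlation with each member over libraries. Others are said to be named after their values were seen. Positions came from GENCODE M21 for 18506 genes and from RefSeq for 167, and 160 were not placed. Shares have 95% Clopper-Pearson intervals. Thinning drew 5000 UMIs per cell at random. Intervals and shares cover counting error only.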

Additional observations from a re-analysis of the deposited data

Results flagged for a closer look

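Dixon's test at the 95% level was applied to 58 groups of 4 libraries, and chance marks about 1 group in 20. Of the members' values it marked 1, the share of cells with a *9330117O12Rik* UMI after thinning, which was 7.64% in the cortex of KO mouse 3 and 8.43 to 8.52% in the other KO libraries. *Csf1r* stood apart in the cortex of WT mouse 4, a batch 6 library, with a mean log2 level of 0.0869 against 0.0435 to 0.0507 and a UMI in 10.2% of cells against 5.31 to 5.83% in the other WT libraries. *Serpina3n* stood apart in the hippocampus of WT mouse 4, the WT library with the 6 Oligo1 cells, with a mean log2 level of 0.0574 against 0.00996 to 0.0127, 7.68 CPM against 1.24 to 1.64 CPM, and a UMI in 6.69% of cells against 1.43 to 1.51%.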

How the results depend on the processing

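The KO minus WT value of *9330117O12Rik* was negative and that of *Tmem80* positive under all 18 alternatives run for each, including each mouse left out (-0.183 to -0.182 and 0.152 to 0.168). On the other scales, log2 of the mean plus 0.1, log2 of the mean plus 1 and edgeR on UMI sums, the value was -0.852, -0.225 and -1.28 for *9330117O12Rik* and 0.617, 0.188 and 0.841 for *Tmem80*. For *9330117O12Rik* it moved beyond the small SD between mice with centring on the median gene (-0.184), all oligodendrocytes (-0.185), clusters weighted equally (-0.179), hippocampus only (-0.212), cortex only (-0.153), and in 3 alternatives chosen after seeing the data, without the batch 6 libraries (-0.209) and in cells without microglial (-0.193) or haemoglobin UMIs (-0.178). The last gave 0.150 for *Tmem80*. Thinning to 5000 UMIs brought the share of cells from 36.2 to 18.7% in WT and from 17.8 to 8.26% in KO for *9330117O12Rik*, and from 26.3 to 12.5% and from 43.2 to 22.2% for *Tmem80*, by construction. The number of genes passing for genotype, 2, became 0 with no filter, 0 in hippocampus only, 0 in cortex only, 5 with all oligodendrocytes, 4 with clusters weighted equally, and 21 to 51 with a mouse left out (21 without WT mouse 1, 51 without KO mouse 3), where the lone mouse is assumed to vary like the other genotype. That for tissue, 0, became 9 in DESeq2 and 58 with the replicate block, and stayed 0 with a mouse left out. That for the interaction, 2, became 0 with log2 of the mean plus 0.1, no filter, centring, no replicate block and Oligo2 to Oligo4 cells, 1 in edgeR, and 0 to 68 with a mouse left out (68 without KO mouse 6). The causes were not tested. The members passed neither the tissue nor the interaction test under any alternative (tissue adjusted p from 0.311 to 1.00, interaction adjusted p from 0.210 to 1.00), and the interaction value of *Tmem80* changed sign among them (-0.0101 to 0.106). With a mouse left out, the tissue difference was 0.00661 to 0.0449 for *9330117O12Rik* and -0.0281 to -0.0202 for *Tmem80*, and the interaction value -0.111 to -0.0147 and -0.0101 to 0.0136. No neighbour or transition zone gene passed under any of 16 alternatives. Without the batch 6 libraries, 512 genes in place of 223 had non-overlapping libraries, with 3 against 3 compared. These genes had 16.6 to 51.4 CPM per library, and which tissue differences could be detected at this depth was not tested.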
